A study of Mus musculus with 7 samples.

Results

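The endoplasmic reticulum (ER) folding, stress-sensing and degradation machinery was followed as a list of 46 named genes in the hearts of mice with an induced knockout of Akt1 and Akt2 in cardiomyocytes. The members were taken by name, and each was represented by its brightest probe among those with a signal well over background in 3 or more of the 7 hearts. All 46 were measured, among 23678 genes tested. They fell into 24 folding factors and enzymes, 8 stress sensors and their processing factors, 10 factors of ER-associated degradation and 4 translocation members. The translocation members are the channel subunits Sec61a1 and Sec61b and the translocon-associated subunits Ssr1 and Ssr3. The transcription factor gene Xbp1 and the ER membrane protein gene Wfs1 were counted with the sensors.

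RNA from the heart apex was hybridised to single-colour Agilent arrays, 1 array a mouse, all on 1 slide. The 3 double knockout (DKO) mice carried a heterozygous MHC-mercremer transgene and homozygous floxed Akt1 and Akt2 alleles, so that recombination depends on the αMHC promoter, which is active in cardiomyocytes. The 4 control mice carried the heterozygous MHC-mercremer transgene alone, so mice with floxed alleles and no recombinase were not part of the comparison. All 7 were male C57Bl/6 mice aged 3 months given 500 µg of 4-OH-tamoxifen daily over 5 days, and hearts were taken 10 days after induction.

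Proteins that enter the ER are folded there by chaperones of the HSP70 and HSP90 families, lectin chaperones and protein disulfide isomerases. When unfolded proteins build up, the sensors IRE1 (gene Ern1), PERK (Eif2ak3) and ATF6 start the unfolded protein response. IRE1 splices the Xbp1 mRNA, ATF6 is cut by the site-1 and site-2 proteases, both of these arms raise transcription of folding and degradation factors, and PERK slows translation. Proteins that fail to fold are moved back to the cytosol and degraded. In the heart the same compartment loads secreted and membrane proteins and lies next to the calcium stores that drive contraction.

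Between 53.0% and 57.6% of spots were well above background on each array, and no spot was saturated. Akt2 was lower in the DKO hearts on all 3 of its probes, by 2.05, 2.29 and 0.68 on the log2 scale (limma, adjusted p = 0.000203, 0.000295 and 0.0335 over all probes). The 2 Akt1 probes did not fall: their differences were 0.17 (adjusted p = 0.199) and 0.47 (adjusted p = 0.139), and whether they lie within the deleted exons was not analysed here. All 12 ventricular cardiomyocyte markers were measured and none passed the limma test, with 4 at an unadjusted p below 0.05, of which Ryr2 (-0.38), Ttn (-0.32) and Actc1 (-0.24) were lower on every DKO array and Atp2a2 (0.20) higher. Their summed signal was 21.15 to 21.21 (log2) in control hearts and 21.13 to 21.29 in DKO hearts. In whole tissue, fewer cells of a type and less RNA per cell cannot be told apart.

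Values below are log2 signals after each array's 75th percentile was set to a common level, and a difference is the DKO mean minus the control mean, with the standard error (SE) of the limma fit. A gene is said to have risen or fallen where its Benjamini-Hochberg adjusted p over all 23678 genes was below 0.05. Levels of different genes are not compared with each other, since probes differ in brightness. Across all genes, 4.7% passed this test, 2.41% as higher and 2.29% as lower in DKO hearts. Among the tested genes that have a symbol, as all the members do, 3.02% passed as higher. Every DKO array lay above every control array for 13.2% of genes and below for 12.5%. At an unadjusted p below 0.05 there were 25.5% of genes, and 46.9% of differences were above 0.

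Of the 46 ER genes, 11 rose in DKO hearts (23.9%) and none fell. The 11 were 9 folding factors (Sdf2l1, Manf, Pdia4, Hyou1, Creld2, Hsp90b1, Dnajb9, P4hb and Sil1), the transcription factor gene Xbp1, and Derl3, a channel component of ER-associated degradation. Derl3 met the filter on dim probes only through the DKO hearts, so its call is given as a description, and the 45 members with signal on all 7 arrays had 10 that rose (22.2%). At an unadjusted p below 0.05 there were 30 of 46. The difference was above 0 for 42 members, and the groups did not overlap for 27 members higher and 2 lower. The median difference over the 46 was 0.28 (0.25 over the 45), against -0.02 over all genes tested and 0.02 over the tested genes that have a symbol.

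By role, 9 of 24 folding members rose (37.5%), with a median difference of 0.48 and a range from -0.24 to 1.69. Among the 8 sensors and processing factors 1 rose (12.5%) and the median was 0.16. The 1 was the transcription factor gene Xbp1, and none of the sensor genes Ern1, Eif2ak3, Atf6 and Atf6b rose. Among the 10 degradation factors the 1 call was that of Derl3, and the median was 0.29. For the 9 others none passed in limma, 5 were at an unadjusted p below 0.05, the median was 0.23 and the range was from -0.04 to 0.49. None of the 4 translocation members passed the limma test, 1 was at an unadjusted p below 0.05, and their median was 0.07. These shares describe lists of 4 to 24 genes, and the difference between the roles was not tested.

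**Figure D1:**
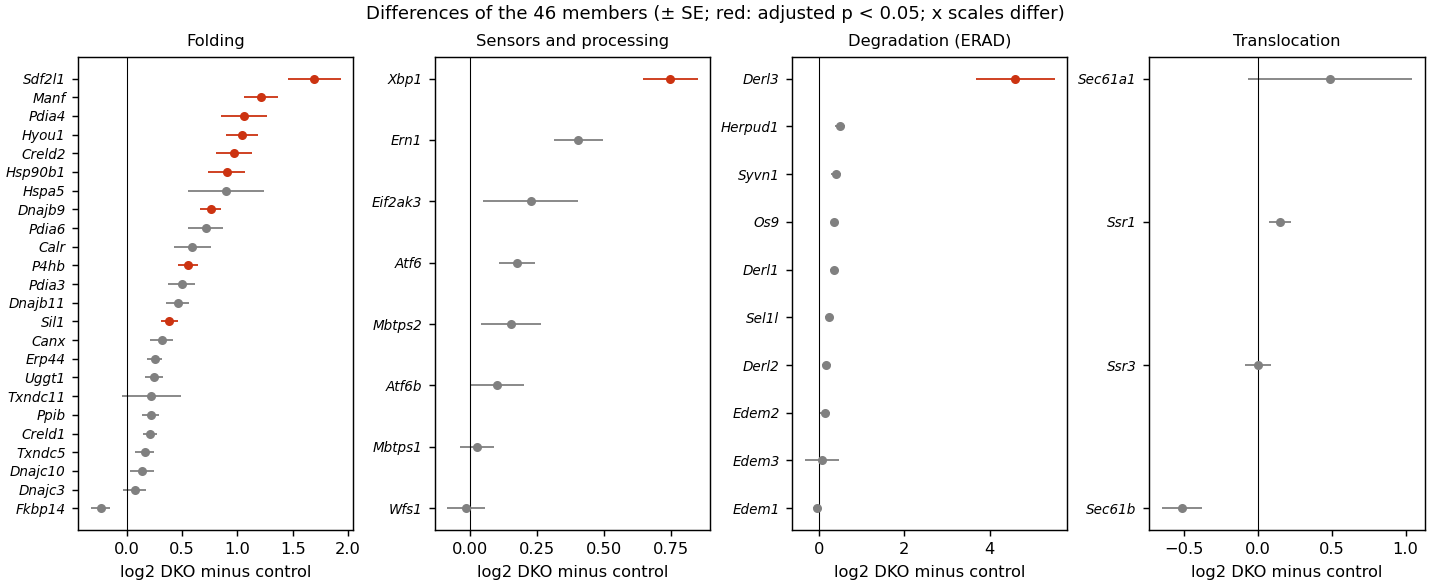
The 46 members in 4 panels by role, each point the log2 difference of DKO minus control hearts with its standard error; red points have an adjusted p below 0.05. The x axes differ between panels. Of the 24 folding members, 23 lie above 0 and 9 are red, while the translocation panel spans -0.51 to 0.49 with no red point.

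Summarised array by array, the folding members' median deviation from the control mean was -0.18, 0.04, 0.08 and 0.05 in the 4 control hearts and 0.45, 0.33 and 0.60 in the 3 DKO hearts. The groups were separate, with control 1 the lowest array and DKO 3 the highest. The sensors had medians of -0.03, 0.01, -0.04 and 0.05 in control hearts and 0.17, 0.14 and 0.21 in DKO hearts. The degradation factors had medians between -0.05 and 0.03 in control hearts and of 0.22, 0.29 and 0.34 in DKO hearts. Both of these sets were also separate between the groups, by a smaller distance than the folding set. The translocation members overlapped, at -0.09 to 0.19 in control and -0.03 to 0.12 in DKO hearts.

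**Figure D2:**
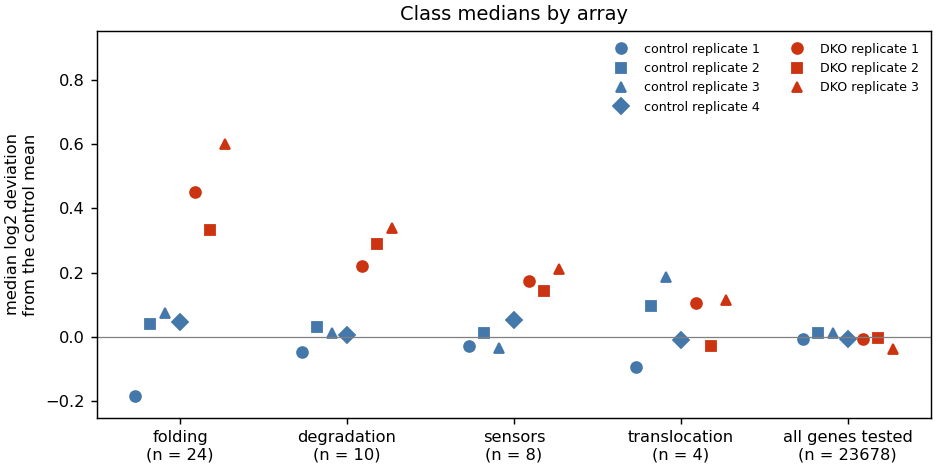
The median log2 deviation from the control mean over the members of each role (y axis), 1 point an array, with the number of members under each role. The folding members reach 0.33 to 0.60 in the 3 DKO hearts and stay at or below 0.08 in the 4 control hearts, while the translocation members overlap.

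The arrays lay on the slide in 2 rows and 4 columns. Within slide row 1 (3 control and 1 DKO array) the folding median difference was 0.59, and within row 2 (1 control and 2 DKO arrays) it was 0.36. With slide row as a block 5 of the 11 passed in limma (Manf, Creld2, Sdf2l1, Derl3 and Dnajb9), and Hyou1 (adjusted p = 0.0523) and Xbp1 (adjusted p = 0.0543) did not. Derl3 met the filter on dim probes only through the DKO hearts, so its calls in these fits are given as a description. For the sensors the row values were 0.22 and 0.07, for the degradation factors 0.36 and 0.20, and for the translocation members 0.15 and -0.13. The number of members that passed the test moved with the arrays used: it was 6 without control 1, 7 without control 2 or control 3, 3 without control 4, 0 without DKO 1, 6 without DKO 2 and 4 without DKO 3. Without DKO 1 the smallest adjusted p of a member in limma was 0.0531 (Dnajb9), 27 members were at an unadjusted p below 0.05 and 42 were still above 0. Of the 7 fits that left out 1 array, Dnajb9 and Manf passed in 6, Sdf2l1 and Xbp1 in 5, Hyou1 in 4, P4hb and Creld2 in 2, Hsp90b1, Pdia4 and Derl3 in 1 and Sil1 in 0. Without both arrays of slide column 1 (control 1 and DKO 2) the folding median was 0.47, and Hyou1 was the 1 member that passed (adjusted p = 0.0246).

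The folding members that rose include the lumenal chaperones and the factors that serve them. Hsp90b1 encodes GRP94, the ER member of the HSP90 family. Its signals were 14.22, 14.48, 14.77 and 14.49 in control hearts and 15.28, 15.21 and 15.69 in DKO hearts. All 3 DKO hearts were above all 4 controls, and the difference was 0.90 ± 0.16 (1.87-fold; limma, adjusted p = 0.0327). Hyou1, a large HSP70-related chaperone that acts as a nucleotide exchange factor for BiP, had 5.36, 5.64, 5.67 and 5.59 in control and 6.80, 6.29 and 6.72 in DKO hearts. The groups were separate, with DKO 2 the lowest of the DKO hearts, and the difference was 1.04 ± 0.14 (adjusted p = 0.0157). This Hyou1 probe was the brightest by its mean over all 7 arrays, DKO hearts included. In control hearts alone another Hyou1 probe was brighter, with a mean of 5.63 against 5.56. That probe gave 0.69 ± 0.17 and did not pass (limma, adjusted p = 0.0671 over all probes). Sil1, the other exchange factor of BiP, had 11.92, 12.08, 12.10 and 12.00 in control and 12.39, 12.43 and 12.41 in DKO hearts. Its difference was the smallest among the 11 at 0.39 ± 0.07 (1.31-fold; adjusted p = 0.0368), with the DKO hearts close together. Its adjusted p was above 0.05 when any 1 array was left out, reaching 0.113.

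Dnajb9 encodes ERdj4, a J-domain cochaperone of BiP that also holds IRE1 in its inactive state. Its signals were 10.67, 10.96, 10.92 and 10.97 in control hearts against 11.58, 11.65 and 11.69 in DKO hearts. The DKO values were close together and clear of the controls, and the difference was 0.76 ± 0.09 (1.69-fold; limma, adjusted p = 0.0122), the smallest adjusted p of the 46. Sdf2l1 encodes a lumenal partner of the ERdj3 cochaperone and was lowest in control 1. Its signals were 8.19, 8.64, 9.08 and 8.79 in control hearts and 10.20, 10.14 and 10.77 in DKO hearts. At 1.69 ± 0.24 (3.24-fold; adjusted p = 0.017) it had the largest difference of the folding set.

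Manf, a small secreted and ER-retained protein induced by ER stress, had 10.44, 10.76, 10.94 and 10.93 in control hearts and 11.89, 11.82 and 12.22 in DKO hearts. Every DKO heart was above every control. The difference was 1.21 ± 0.16 (2.32-fold; limma, adjusted p = 0.0132), and a further probe gave 1.28 ± 0.17. Creld2, an ER protein with disulfide isomerase activity that is a known ER stress target, had 12.15, 12.20, 12.27 and 12.55 in control hearts and 13.18, 13.02 and 13.59 in DKO hearts. Every DKO heart was above control 4, the highest control, and the difference was 0.97 ± 0.16 (1.96-fold; adjusted p = 0.0257). Its paralogue Creld1 had a smaller difference of 0.21 ± 0.06 with separate groups (adjusted p = 0.0995).

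The disulfide isomerases form and rearrange disulfide bonds. Pdia4 (ERp72) had 8.01, 8.15, 7.97 and 7.78 in control hearts and 9.06, 8.58 and 9.48 in DKO hearts. The DKO hearts were spread widely but all lay above the controls, and the difference was 1.06 ± 0.21 (2.09-fold; limma, adjusted p = 0.0387). P4hb, the isomerase PDI itself and the beta subunit of prolyl 4-hydroxylase, had 11.99, 12.18, 12.28 and 12.24 in control and 12.63, 12.79 and 12.76 in DKO hearts. Here the groups were separate and the difference was 0.55 ± 0.09 (1.47-fold; adjusted p = 0.0278). The isomerases Pdia6 (0.72 ± 0.16, adjusted p = 0.0513) and Pdia3 (0.50 ± 0.12, adjusted p = 0.069) had separate groups and did not pass. Erp44 (0.25), Txndc5 (0.16), Dnajc10 (0.14) and Txndc11 (0.22), which also carry thioredoxin-like domains, did not pass either, with adjusted p from 0.0917 to 0.634. Txndc11 was low in control 1, and its difference was -0.03 without that array.

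**Figure D3:**
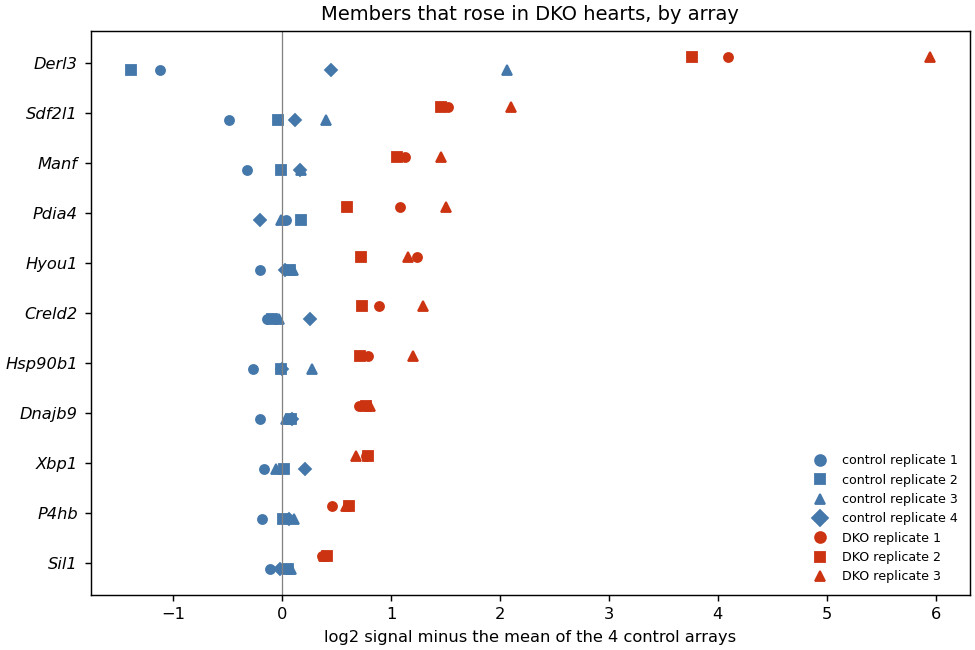
The 11 members that rose, each array drawn as its log2 signal minus the mean of the 4 control arrays (x axis), control and DKO arrays in separate colours. For each gene all 3 DKO arrays lie to the right of all 4 control arrays, and Derl3 has the widest spread. Derl3 met the filter on dim probes only through the DKO hearts.

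Hspa5 encodes BiP, the central ER chaperone and the protein whose release from the sensors accompanies their activation. Its brightest probe had 13.80, 14.78, 14.83 and 14.75 in control hearts and 15.64, 14.79 and 15.88 in DKO hearts. Control 1 stood well below the other controls, DKO 2 stood with the controls, and the difference of 0.90 ± 0.34 did not pass (limma, adjusted p = 0.163). The 2 dimmer probes did not show these low values. One had 13.04, 13.18, 13.41 and 13.04 in control hearts and 14.25, 13.99 and 14.21 in DKO hearts, a difference of 0.98 ± 0.12 with separate groups (adjusted p = 0.0123 over all probes). The other had 12.35, 12.61, 12.53 and 12.41 in control hearts and 13.58, 13.36 and 13.61 in DKO hearts, a difference of 1.04 ± 0.10 (adjusted p = 0.00776). With the mean of the 3 probes in place of the brightest, the Hspa5 difference was 0.97 with an adjusted p of 0.032.

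The remaining folding members did not pass the test. The lectin chaperones Calr (0.59 ± 0.17, adjusted p = 0.0914) and Canx (0.32 ± 0.10, adjusted p = 0.124), which hold glycoproteins during folding, had separate groups. So did Uggt1, which returns misfolded glycoproteins to them (0.25 ± 0.08), the prolyl isomerase Ppib (0.22 ± 0.08) and the BiP cochaperone Dnajb11 (0.46 ± 0.11, adjusted p = 0.0564). The dimmer probes of Canx (0.18 ± 0.09) and Uggt1 (-0.06 ± 0.13) overlapped between the groups. Dnajc3, which encodes the BiP cochaperone p58IPK, overlapped between the groups at 0.07 ± 0.11 (adjusted p = 0.708). Fkbp14, a prolyl isomerase that acts on collagens, was the only folding member below 0, at -0.24 ± 0.09 (adjusted p = 0.155). Its dimmer probe gave 0.36 ± 0.42.

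In the set of sensors and processing factors, Xbp1 was the only gene that rose. Xbp1 encodes the transcription factor made from the mRNA that IRE1 splices, and is not itself a sensor. Its signals were 13.06, 13.25, 13.17 and 13.43 in control hearts and 14.00, 14.02 and 13.91 in DKO hearts. The DKO hearts lay close together and all above the controls, with a difference of 0.75 ± 0.10 (1.68-fold; limma, adjusted p = 0.0153; 0.0543 with slide row as a block). Its 2 other probes gave 0.78 ± 0.11 and 0.71 ± 0.10, and both passed over all probes (adjusted p = 0.0158 and 0.0188). Whether the probes tell spliced from unspliced mRNA was not analysed here.

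Ern1, the gene of IRE1 itself, had 7.17, 6.90, 7.10 and 7.07 in control and 7.57, 7.39 and 7.43 in DKO hearts. The groups were separate, and the difference of 0.40 ± 0.09 missed the threshold (limma, adjusted p = 0.0557). It passed after quantile normalization (0.48, adjusted p = 0.0226) and in the authors' deposited value table (0.48, adjusted p = 0.0221). Atf6 had 11.11, 11.19, 11.09 and 11.07 in control and 11.32, 11.25 and 11.30 in DKO hearts. These groups were separate by a narrow margin, with a difference of 0.18 ± 0.07 (adjusted p = 0.163). Its relative Atf6b had 7.60, 7.60, 7.59 and 7.77 in control and 7.56, 7.79 and 7.88 in DKO hearts. The Atf6b groups overlapped, at 0.10 ± 0.10 (adjusted p = 0.558). Eif2ak3, the gene of the kinase PERK, had 7.54, 8.12, 7.94 and 7.87 in control and 8.31, 7.77 and 8.20 in DKO hearts. Its groups overlapped, control 1 and DKO 2 being the lowest arrays, and the difference was 0.23 ± 0.18 (adjusted p = 0.46).

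The site-1 and site-2 protease genes Mbtps1 (0.03 ± 0.06) and Mbtps2 (0.15 ± 0.11) overlapped between the groups. Wfs1, which encodes the ER membrane protein wolframin, had a difference of -0.01 ± 0.07 and took the other sign, 0.01, without control 4 or DKO 3.

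Derl3, a derlin best known from secretory cells such as those of the pancreas, was near the detection limit in control hearts and measured in DKO hearts. Its signals were 2.70, 2.43, 5.88 and 4.26 in control hearts and 7.91, 7.58 and 9.76 in DKO hearts. Its probe was clearly over background in 1 of the 4 control hearts and in all 3 DKO hearts, so it entered the test through the DKO hearts and its control values are mostly no measured level. The fitted difference was 4.60 ± 0.93 on the log2 scale (limma, adjusted p = 0.0418). With the control values raised to each array's lowest signal that was well above background, the control mean was 4.81 against 8.42 in DKO hearts. At this floor the signal was 12.2-fold higher (3.61 on the log2 scale). The floor is no firm limit, since control 4 at 4.26 lay above its floor of 4.18 and was still not well above background. Derl3 passed in 1 of the 7 fits that left out 1 array, with adjusted p up to 0.118.

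The other derlins, which share its place in the retrotranslocation machinery, had smaller differences in the fit. Derl1 had 10.72, 10.72, 10.66 and 10.88 in control and 11.03, 11.15 and 11.09 in DKO hearts. The groups were separate, at a difference of 0.35 ± 0.08 (limma, adjusted p = 0.0603). Derl2 had 12.90, 12.78, 12.91 and 12.87 in control and 12.82, 13.13 and 13.16 in DKO hearts. DKO 1 fell among the controls and the difference was 0.17 ± 0.10 (adjusted p = 0.334), while its dimmer probe gave 0.29 ± 0.07 with separate groups (adjusted p = 0.0614 over all probes).

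Herpud1, an ER membrane protein that assembles the degradation complex, had 13.08, 13.27, 12.88 and 13.06 in control and 13.57, 13.39 and 13.72 in DKO hearts. Its groups were separate, with a difference of 0.49 ± 0.12 (limma, adjusted p = 0.068), and its dimmer probe passed over all probes at 0.57 ± 0.10 (adjusted p = 0.0262). The ubiquitin ligase gene Syvn1 (HRD1; 0.40 ± 0.12), its adaptor Sel1l (0.23 ± 0.09) and the lectin Os9 that brings glycoproteins to them (0.35 ± 0.08) had separate groups. Their adjusted p were 0.104, 0.159 and 0.0537. The dimmer Sel1l probe gave 0.07 ± 0.19 with overlapping groups. The mannosidase-like genes that mark glycoproteins for disposal overlapped between the groups, at -0.04 for Edem1, 0.14 for Edem2 and 0.06 for Edem3. The dimmer Edem1 probe gave 0.46 ± 0.10 (adjusted p = 0.0564 over all probes), and the Edem3 difference was -0.32 without control 1, where its signal was 6.76 against 8.12 to 8.48 in the other controls.

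The translocation channel passes new chains into the ER. Sec61a1, its pore subunit, had 9.66, 11.80, 11.74 and 11.83 in control hearts and 12.03, 11.30 and 11.91 in DKO hearts. Control 1 lay far below every other array, and the difference of 0.49 ± 0.56 (limma, adjusted p = 0.614) became -0.05 without it. Sec61b, a small subunit, had 13.48, 13.30, 13.84 and 13.45 in control and 13.11, 12.97 and 12.93 in DKO hearts. The groups were separate and lower in DKO, at -0.51 ± 0.14 (adjusted p = 0.0798), while its dimmer probe gave 0.18 ± 0.09. Of the translocon-associated subunits, Ssr1 had a difference of 0.15 ± 0.07 and Ssr3 a difference of 0.00 ± 0.09.

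Of the 46 members, 24 had at least 2 kept probes, which gave 31 probes beside the brightest. The sign was the same on 26 of the 31 and opposite on 5, in Uggt1, Fkbp14, Edem1, Sec61a1 and Sec61b. Of the 31, 9 passed over the 30466 probes tested as higher and 0 as lower. The 9 were 2 probes each of Hspa5 and Xbp1 and 1 each of Manf, Herpud1, Hyou1 (0.52 ± 0.09), Sil1 (0.65 ± 0.10) and Dnajb11 (0.42 ± 0.09, adjusted p = 0.0469). The third Hyou1 probe gave 0.69 ± 0.17 and did not pass (adjusted p = 0.0671).

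**Figure D4:**
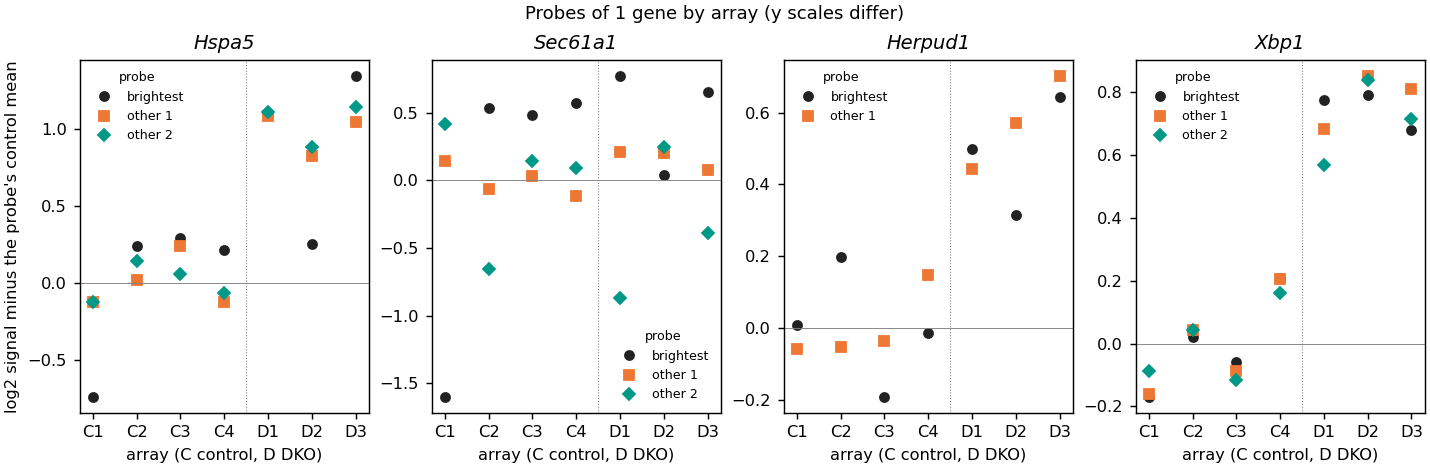
Every kept probe of single members by array (x axis; C control, D DKO), as log2 signal minus that probe's control mean (y axis; scales differ between panels). The brightest Hspa5 probe drops on control 1 and DKO 2 while its 2 other probes do not, and the Sec61a1 panel shows control 1 far below the rest for the brightest probe.

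Promoter windows were searched for the element that ATF6 and XBP1 are known to bind, since many folding members were higher together. RefSeq start sites on GRCm38.p6 were available for 40 of the 46 members, with 250 bases before and 50 bases after the start. The ER stress response element was written as CCAAT, 9 bases of any kind, then CCACG, and the shorter ERSE-II as ATTGG, 1 base of any kind, then CCACG. Both strands were searched. The first was present in 39 of 32851 promoters of all genes (0.119%), and the second in 12 (0.0365%). Among the members, 9 held the first, with 2 copies in Hsp90b1, and 2 held the second. Both elements were taken from earlier work on ER stress genes. Their presence in members of this list is therefore a description and no independent result. The matched stretches are shown because they are what these promoters have in common, with the fixed letters in capitals and in the 5′ to 3′ direction of the element.
Hspa5: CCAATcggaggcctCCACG
Hsp90b1: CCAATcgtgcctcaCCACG
Hsp90b1: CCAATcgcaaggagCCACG
Calr: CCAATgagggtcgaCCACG
Canx: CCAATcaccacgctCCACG
Pdia6: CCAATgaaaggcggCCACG
Creld2: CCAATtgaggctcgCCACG
Dnajc3: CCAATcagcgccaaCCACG
Syvn1: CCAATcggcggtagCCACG
Derl3: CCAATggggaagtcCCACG
Herpud1: ATTGGgCCACG
Dnajb11: ATTGGcCCACG

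The matches lay within 212 bases before the start, except the Dnajb11 match, which began 7 bases after it. The Hspa5 match covered 65 to 47 bases before the start and the Syvn1 match 44 to 26. Those of Calr, Creld2 and Derl3 and 1 of the 2 in Hsp90b1 were read on the opposite strand. None of the 10 longer stretches shared its 9 middle bases with another.

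The 250 bases before the start are given for BiP (chr2:34771840-34772089, plus strand), GRP94 (chr10:86705445-86705694, minus strand) and Derl3 (chr10:75893148-75893397, plus strand), each on the gene's own strand with the matches in capitals. They show 1 match near the start, 2 matches in opposite directions, and the match of Derl3.
Hspa5: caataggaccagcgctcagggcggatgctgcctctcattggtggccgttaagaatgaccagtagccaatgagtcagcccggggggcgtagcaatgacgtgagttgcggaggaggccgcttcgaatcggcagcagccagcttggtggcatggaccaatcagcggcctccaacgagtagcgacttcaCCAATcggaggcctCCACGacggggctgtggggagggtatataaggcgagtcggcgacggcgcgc
Hsp90b1: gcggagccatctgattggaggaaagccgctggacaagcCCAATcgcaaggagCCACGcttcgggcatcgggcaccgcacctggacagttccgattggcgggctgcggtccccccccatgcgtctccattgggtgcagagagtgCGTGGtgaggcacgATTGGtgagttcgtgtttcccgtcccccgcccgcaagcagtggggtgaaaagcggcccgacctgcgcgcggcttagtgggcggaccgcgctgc
Derl3: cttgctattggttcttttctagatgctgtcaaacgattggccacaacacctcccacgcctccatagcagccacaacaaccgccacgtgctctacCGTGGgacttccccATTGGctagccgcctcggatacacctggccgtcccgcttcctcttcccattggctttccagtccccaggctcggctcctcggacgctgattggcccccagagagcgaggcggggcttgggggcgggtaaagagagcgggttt

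Members with either element had a median difference of 0.59, and 3 of 11 rose (Creld2, Derl3 and Hsp90b1). Members without an element had a median of 0.21, and 5 of 29 rose. Derl3 met the filter on dim probes only through the DKO hearts, so its call here is a description. The counts with and without an element were not compared by a test. Pdia4, P4hb, Dnajb9, Sdf2l1 and Xbp1 were the 5 that rose without a match in this window. Hyou1, Manf and Sil1, which also rose, had no window to search and are in neither count. Dnajc3 held the element and had a difference of 0.07. Outside the members, 16 tested genes held either element, with a median difference of 0.12. Of these, 0 rose and 1 fell in limma (Xlr3b, -0.92, adjusted p = 0.0368), and 4 were at an unadjusted p below 0.05, a share near that of all genes. The letters TGACGTGG, a form bound by ATF6 and XBP1, occurred in 0.676% of promoters and in Txndc5 and Txndc11 among the members. The ATF4-type letters TGATGCAA occurred in 0.895% and in Herpud1. These matches describe letters in a window and were not tested as binding sites.

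**Figure D5:**
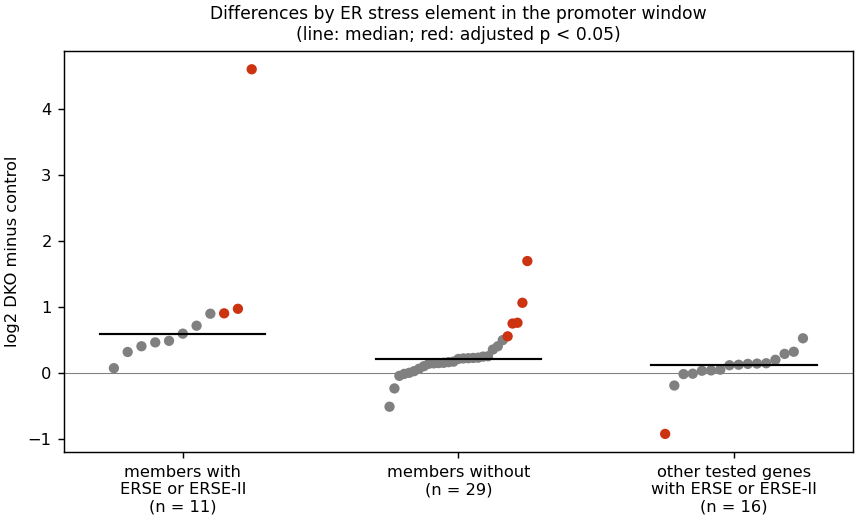
Log2 differences of DKO minus control hearts (y axis) for the 11 members with an ER stress element in the promoter window, the 29 members without one and the 16 other tested genes with one; lines are medians and red points have an adjusted p below 0.05. The medians are 0.59, 0.21 and 0.12. The 11 include Derl3, which met the filter on dim probes only through the DKO hearts.

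Beside the 46, 120 further genes of the same pathways were listed and 115 were measured. Of these, 6 rose (5.22%) and 1 fell, and the median difference was 0.10, with 90 above 0 and 25 below. Among all tested genes that have a symbol, 3.02% rose and the median was 0.02. At an unadjusted p below 0.05 there were 39 of the 115, and 25.5% of all genes tested. The counts of single lists below are to be read beside these shares. The lists were chosen with earlier results of these data known.

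The PERK and ATF4 arm held 2 of the genes that rose. Chac1, a glutathione-degrading enzyme induced by ATF4, had 8.79, 8.89, 8.95 and 8.72 in control and 10.13, 10.01 and 10.04 in DKO hearts, a difference of 1.22 ± 0.08 (limma, adjusted p = 0.00324). Ppp1r15a (GADD34), the phosphatase subunit that ends the PERK signal, had 11.33, 11.23, 11.39 and 11.26 in control and 12.20, 12.29 and 12.57 in DKO hearts, a difference of 1.05 ± 0.11 (adjusted p = 0.00778). Both had separate groups and passed in all 7 fits that left out 1 array. Of the 11 genes of this arm, these 2 rose and none fell, 4 were at an unadjusted p below 0.05, and the median was 0.15. The other 2 of these 4, Ppp1r15b (0.32 ± 0.08, adjusted p = 0.0604) and Cebpb (0.46 ± 0.14, adjusted p = 0.108), had separate groups and did not pass. Atf4 itself (0.05, adjusted p = 0.909), Ddit3, the gene of CHOP (-0.20, adjusted p = 0.312), Trib3 (0.18, adjusted p = 0.361) and Asns (-0.02, adjusted p = 0.938) did not pass.

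Of 16 measured genes of targeting and translocation, Tram2 rose. Tram2 encodes a translocon-associated membrane protein known for collagen synthesis. It had 9.64, 9.28, 9.38 and 9.54 in control and 10.53, 10.53 and 10.53 in DKO hearts, and the difference of 1.07 ± 0.10 (limma, adjusted p = 0.00677) passed in all 7 fits that left out 1 array. Of 23 further degradation genes 2 rose, Selenos (0.63 ± 0.10, adjusted p = 0.0216) and Aup1 (0.42 ± 0.07, adjusted p = 0.0288), and none fell. Of 23 export and retrieval genes Tmed3, a cargo receptor, rose (0.49 ± 0.08, adjusted p = 0.0263). Of 20 measured genes in a list of further thiol oxidation, prolyl isomerase and canopy genes, Tmx2 fell by 0.78 on the log2 scale (adjusted p = 0.0178). Tmx2 encodes a membrane-bound thioredoxin-related protein. The PDI oxidase genes Ero1a (0.07) and Ero1b (0.03) did not pass. Of the 7 fits that left out 1 array, Tmx2 passed in 4, Selenos and Aup1 in 2 and Tmed3 in 1. None of the 15 N-glycosylation genes passed in limma, 4 were at an unadjusted p below 0.05, and all 15 were above 0 with a median of 0.10. A list of ER stress bZIP factors and CCAAT-binding NF-Y subunits had 7 measured genes. None of the 7 passed, and 1 was at an unadjusted p below 0.05.

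Markers of other heart cells were set beside these counts, because fibroblasts and plasma cells carry large amounts of ER. None of the 10 fibroblast markers passed in limma, 3 were at an unadjusted p below 0.05, and 9 were above 0. Their summed signal was 17.58 to 17.63 in control hearts and 17.69 to 17.86 in DKO hearts, so the sums were separate by a narrow margin. The fibroblast sums rest mainly on the brightest, Gsn (0.22) and Dcn (0.14). Every DKO array was higher for 3 of the 10 markers and lower for 0. The 10 endothelial markers were all above 0 with none passing and 2 at an unadjusted p below 0.05, and their sums were 16.01 to 16.17 in control and 16.19 to 16.26 in DKO hearts. Among 9 mural cell markers Myh11 rose (0.63 ± 0.14, adjusted p = 0.0487), 6 were at an unadjusted p below 0.05, and the median was 0.22. Every DKO array was higher for 5 of them, Myh11, Tagln, Rgs5, Kcnj8 and Notch3, and lower for 1, Abcc9 (-0.16). The mural sums, 16.30 to 16.50 in control and 16.27 to 16.43 in DKO hearts, rest mainly on Acta2, the brightest, at -0.41. Macrophage sums were 14.05 to 14.20 in control and 14.00 to 14.42 in DKO hearts. Of 13 lymphoid and plasma cell markers 9 were measured, and Jchain and Cd79a were not. None of the 9 passed in limma, 3 were at an unadjusted p below 0.05, and differences ranged from -0.45 to 1.42. Of the 9, 6 were above 0 and 3 below, and every DKO array was lower for 2 and higher for 0. The plasma cell chaperone Mzb1 had a difference of 0.05 (adjusted p = 0.874). The sums were 11.20 to 11.35 in control and 11.05 to 11.26 in DKO hearts. Of 6 atrial markers 4 were measured and none passed in limma, with 3 at an unadjusted p below 0.05 and a median of -0.12. Nppa (0.82) and Nr2f2 (0.19) were above 0, and Myl7 (-1.09) and Myl4 (-0.43) below. Their sums, which rest almost wholly on Nppa, were 16.93 to 17.51 in DKO and 15.97 to 16.73 in control hearts. The adipocyte sums, over 3 of 6 markers, were 15.71 to 15.82 in DKO and 15.30 to 15.70 in control hearts. The part of these cells in the differences of the ER genes was not tested.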

How the data were processed

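RNA of 7 heart apices (4 control, 3 DKO) was labelled with Cy3 and hybridised to Agilent arrays of 62976 spots. Per the file headers, the deposited scanner files came from Feature Extraction 12.0.3.1 and hold a processed intensity for each spot, already corrected for background, with flags for signal above background. The value table that the authors deposited holds log2 values, which matched quantile-normalized, probe-centred intensities of the same arrays, with scale and centring found from the values. Probe accessions were matched to RefSeq gene symbols.

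Processed intensities were taken to log2 and each array's 75th percentile was subtracted, with a constant of 9.14 added back to all arrays. Spots of a probe were averaged, and probes well above background on at least 3 arrays were kept. The brightest kept probe stood for each gene, which left 23678 genes, of which 14722 had a symbol. Groups were compared with limma 3.58.1 (lmFit, eBayes, two-sided, Benjamini-Hochberg adjustment, threshold 0.05) in R 4.3.3, checked on simulated data. A separate fit over 30466 kept probes gave the probe values.

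The members and lists were chosen with earlier results of these data known. Members that rose, the 5 genes Xbp1, Atf6, Atf6b, Ern1 and Eif2ak3 and the 3 derlins are given with every array, the others by difference and counts; of the pathway lists, each gene past the threshold is named. The labels give 1 heart a sample, and the number of arrays limits precision. Same-numbered control and DKO mice did not deviate together (correlations 0.129, 0.00691 and 0.0325), so they were not paired. Alternatives were quantile and median scaling, normexp background correction on the median spot signal, other filters, the mean of a gene's probes, the deposited table, trended variance, array weights, slide row or replicate number as a block, leaving out single arrays, and, chosen after the data were seen, slide column 1 left out and Derl3 set to a floor. Protein sequences were not analysed here.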

Additional observations from a re-analysis of the deposited data

Results flagged for a closer look

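In 50 sets of 4 control values (46 members and the medians of the 4 roles), 6 held a value far from the other 3 by Dixon's test, which chance alone gives in about 1 in 20 groups. In 5 of the 6 it was the lowest value and came from control 1. These were Hspa5 at 13.80 (the others 14.75 to 14.83), Dnajb9 at 10.67 (10.92 to 10.97), Dnajb11 at 11.48 (11.68 to 11.73), Sec61a1 at 9.66 (11.74 to 11.83), and the median deviation of the folding members at -0.18 (0.04 to 0.08). The sixth was Atf6b in control 4, at 7.77 against 7.59 to 7.60.

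Without control 1, of the 11 members that rose, 6 passed the limma test: P4hb, Dnajb9, Hyou1, Manf, Sdf2l1 and Xbp1. The folding median without it was 0.41.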

How the results depend on the processing

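The folding, sensor and degradation medians stayed above 0 under every setting run, while the counts of members passing the test did not hold. All genes called numbered 1114, and 555 with normexp, 121 with no filter on dim probes, 2007 with trended variance, 1680 with array weights, 288 with slide row as a block, 82 without slide column 1 and 160 to 1127 with 1 array left out. Members called (11) numbered 19 with trended variance, 5 with the row block, 1 (Hyou1) without column 1, 0 with no filter (smallest adjusted p 0.0564, 26 members at an unadjusted p below 0.05), and 0 to 7 with 1 array left out. With the replicate block, 1 gene and 0 members were called by limma (smallest adjusted p of a member 0.115, 22 members at an unadjusted p below 0.05), with 0 of the folding, sensor and degradation members. Folding members called (9) numbered 0 with no filter, 4 with the row block, 1 without column 1 and 0 to 6 with 1 array left out. Sensor members called (1) numbered 2 with quantile normalization, the filter on all 7 arrays, the deposited table and array weights, 0 with no filter, the row block and without column 1, and 0 to 1 with 1 array left out. Degradation members called (1) numbered 2 with the filter on all 7 arrays, the mean of probes and array weights, 4 with trended variance, 0 with no filter and without column 1, and 0 to 1 with 1 array left out. Translocation members called (0) numbered 1 with trended variance. With 1 array left out the medians ranged from 0.41 to 0.53 (folding), 0.11 to 0.20 (sensors), 0.24 to 0.32 (degradation) and -0.05 to 0.11 (translocation, -0.0468 without control 1), and the degradation median was 0.22 with normexp. The cause was not tested, except that fewer arrays or more genes enter some fits.

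Differences near 0 changed sign. Edem1 was 0.0018 with quantile normalization, 0.0017 in the deposited table, 0.0309 with normexp and 0.21 with the mean of probes, where Fkbp14 was 0.0607. Ssr3 was -0.02 with quantile normalization (-0.0161) and in the deposited table (-0.0225), -0.0023 with median centring, -0.0603 with normexp, -0.0261 with array weights, and -0.0486 to 0.0499 with 1 array left out (-0.0484 without DKO 3). Edem3 was -0.15 with array weights, -0.065 with the row block, -0.20 without column 1, and -0.32 (without control 1) to 0.26 with 1 array left out (-0.0126 without DKO 3). Wfs1 was 0.0113 with the replicate block, and -0.0358 to 0.0125 with 1 array left out (0.0113 without control 4, 0.0125 without DKO 3). With 1 array left out Txndc11 was -0.0327 (without control 1) to 0.33, and Sec61a1 -0.0451 (without control 1) to 0.71. Without column 1, Txndc11 was -0.0399 and Dnajc3 -0.062. Dim probes limit Derl3 most, since 3 of 4 control values were not well above background.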

Other observations

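The arrays of control 1 and DKO 2 shared slide column 1. On control 1, 950 of the 23678 genes were at least 0.5 (log2) below the next lowest control, and in 488 of these (51.4%) DKO 2 was also the lowest DKO array, against 31.4% of all genes. Hspa5, Txndc11, Edem3 and Sec61a1 were the members among them, and for Hspa5, Edem3 and Sec61a1 DKO 2 was the lowest DKO array. With both arrays left out, the differences of the 11 members that rose were 0.34 (Sil1) to 4.64 (Derl3), against 0.39 to 4.60 over all arrays, and Hyou1 alone passed in limma (adjusted p = 0.0246) while 25 members were at an unadjusted p below 0.05. The part of slide position in these values was not tested.

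Of the 16 tested genes outside the members that held an ER stress element, Nucb1, a calcium-binding protein of the Golgi (0.20 ± 0.08, limma adjusted p = 0.167), Spats2l (0.32 ± 0.08, adjusted p = 0.0744), Alg12, a mannosyltransferase of N-glycosylation (0.29 ± 0.15, adjusted p = 0.263), and Hnrnpa3 (0.12 ± 0.06, adjusted p = 0.306) had every DKO array above every control array. These were named after their values were seen.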
